A study of Homo sapiens with 8 samples.

Results

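Promoter peaks under 20 kb were the peaks of H3K27ac in which the authors' table names a transcription start site (TSS) and whose width is under 20000 bp. They numbered 9096 of the 31961 peaks in the deposited table (28.5%). The study profiled H3K27ac by chromatin immunoprecipitation and sequencing in clones of CFPAC1, a long-established line of human pancreatic ductal adenocarcinoma. Control clones 1 and 4 had been infected with the lentiCRISPRv2 plasmid, for which the labels name no guide. IRF1-guide clones 11 and 13 had received this plasmid carrying Cas9 together with a guide RNA whose target is IRF1. IRF1 is a transcription factor induced by interferons. From each clone came an untreated library (UT) and a library made after hIFNb, taken to mean human interferon beta, for 2 hours. The 4 groups held 2 libraries each. Each line is 1 clone isolated by dilution, and the labels give the target of the guide and not the IRF1 protein of a clone. All values are scores, which are the authors' normalised read counts per peak, and a pair of scores is given in the order clone 1 then clone 4, or clone 11 then clone 13.

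Acetylation of lysine 27 on histone H3 marks active promoters and enhancers, and at a promoter it spreads over the nucleosomes on both sides of the start site. Type I interferons such as interferon beta bind a receptor that activates the kinases JAK1 and TYK2, and these phosphorylate transcription factors of the STAT family. STAT2 and IRF9 are subunits of the complex ISGF3, which binds the interferon-stimulated response element (ISRE) in promoters of interferon-stimulated genes, and IRF1 binds closely related sequences.

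The promoter sequences below belong to genes whose peaks showed the largest rises with hIFNb among the interferon gene lists and held an ISRE core within the bases before the start. The core searched was GAAA, any 2 bases and GAAA, on either strand, and capitals mark each match. IFNL1 encodes a type III interferon, and the stretch is chr19:39296157-39296406 on the plus strand, with 2 overlapping matches of which the nearer begins at position -208 from the start. IFNL2 (chr19:39268146-39268395, plus strand) and IFNL3 (chr19:39245251-39245500, minus strand) encode 2 more type III interferons, with the match at position -176 in both. These 2 stretches differ at 1 of 250 bases, so that reads may not be assigned cleanly between the 2 genes. RSAD2 encodes the antiviral protein viperin (chr2:6877627-6877776, plus strand), and its match begins at -145. HERC5, the main ligase for ISG15 conjugation, holds 3 matches, the nearest at -74 (chr4:88456969-88457118, plus strand). SHFL encodes shiftless, which blocks viral frameshifting, and its match begins at -43 (chr19:10086167-10086316, plus strand). Sequences run 5′ to 3′ on the strand of the gene, end 1 base before the start and come from RefSeq on GRCh38.p14.

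IFNL1: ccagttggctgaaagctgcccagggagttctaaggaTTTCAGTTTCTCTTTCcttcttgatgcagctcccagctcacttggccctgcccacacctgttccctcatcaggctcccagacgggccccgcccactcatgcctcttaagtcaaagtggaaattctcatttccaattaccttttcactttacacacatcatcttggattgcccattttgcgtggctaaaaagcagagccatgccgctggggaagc
IFNL2: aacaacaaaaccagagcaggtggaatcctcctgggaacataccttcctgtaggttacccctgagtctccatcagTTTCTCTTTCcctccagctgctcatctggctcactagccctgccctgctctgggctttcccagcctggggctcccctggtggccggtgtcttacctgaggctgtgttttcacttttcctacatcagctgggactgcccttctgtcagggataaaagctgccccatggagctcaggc
IFNL3: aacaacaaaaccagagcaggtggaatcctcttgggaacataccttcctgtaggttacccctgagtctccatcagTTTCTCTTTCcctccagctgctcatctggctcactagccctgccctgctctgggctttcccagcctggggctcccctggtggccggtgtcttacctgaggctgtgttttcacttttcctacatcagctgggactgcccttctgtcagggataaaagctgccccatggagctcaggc
RSAD2: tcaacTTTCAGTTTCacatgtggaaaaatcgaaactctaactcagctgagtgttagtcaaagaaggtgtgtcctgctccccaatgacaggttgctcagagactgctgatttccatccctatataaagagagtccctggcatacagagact
HERC5: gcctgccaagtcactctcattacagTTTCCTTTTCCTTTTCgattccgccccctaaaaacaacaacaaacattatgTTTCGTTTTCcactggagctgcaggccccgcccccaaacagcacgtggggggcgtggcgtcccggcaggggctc
SHFL: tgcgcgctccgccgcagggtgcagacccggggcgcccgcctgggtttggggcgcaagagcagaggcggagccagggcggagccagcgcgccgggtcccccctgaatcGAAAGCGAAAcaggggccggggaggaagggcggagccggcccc

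The next sequences are shown for contrast. LINC02000, a long non-coding RNA gene (chr3:134057649-134057898, minus strand), and SLFN12L, a Schlafen family gene (chr17:35537679-35537828, minus strand), hold ISRE cores and had lower scores in IRF1-guide than in control clones after hIFNb. CYP1A1, a cytochrome P450 gene known as a target of the aryl hydrocarbon receptor (chr15:74725529-74725678, minus strand), rose with hIFNb and has no match in its printed stretch.

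LINC02000: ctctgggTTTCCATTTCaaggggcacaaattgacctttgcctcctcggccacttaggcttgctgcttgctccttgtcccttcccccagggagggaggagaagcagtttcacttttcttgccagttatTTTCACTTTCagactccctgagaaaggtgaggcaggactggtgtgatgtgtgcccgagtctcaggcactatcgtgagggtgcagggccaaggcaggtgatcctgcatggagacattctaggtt
SLFN12L: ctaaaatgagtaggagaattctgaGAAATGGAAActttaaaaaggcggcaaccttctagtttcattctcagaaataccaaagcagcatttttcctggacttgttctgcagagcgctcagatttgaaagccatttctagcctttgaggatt
CYP1A1: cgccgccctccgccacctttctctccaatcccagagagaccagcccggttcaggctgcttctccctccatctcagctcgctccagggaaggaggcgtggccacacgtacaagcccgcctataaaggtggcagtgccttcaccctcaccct

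The promoter peaks had a median width of 3670 bp (quartiles 2310 and 6680 bp) and covered 47.1 Mb. Their mean score over the 8 libraries had a median of 65.1 and reached 1086. Per kb of width the median score was 17.2, against 12.2 in the 21415 peaks under 20 kb with no TSS and 22.2 in the 807 TSS peaks of 20 kb or more. Just inside the width limit lay ZBED2 (19978 bp, mean score 321) and FZD5 (19976 bp, 215), and just outside it LOC105370122 (20001 bp, 196) and LOC105378771 (20130 bp, 412). The 3 highest mean scores belonged to BMS1P2-AGAP9, FAM25C and GLUD1P2, which all lie on chromosome 10 in a region of near-identical gene copies, so the origin of their reads is uncertain. None of the 3 passed the test for hIFNb (log2 changes of -0.09, -0.25 and -0.15, limma adjusted p = 0.668, 0.428 and 0.466).

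The authors give 1 gene symbol per peak, while 2325 of the promoter peaks held the RefSeq starts of 2 or more genes. Symbols therefore name peaks here and not always the gene that a reader would look for. The start of GAPDH lies in the peak named LOC112268089, CMPK2 shares the RSAD2 peak, CXCL10 shares the CXCL11 peak and GBP4 lies in LOC107985076. ISG15, KRT19 and IRF1 lie in peaks wider than the limit and are not part of the set. Of 9 ductal epithelial markers, 8 were overlapped by a TSS peak of any width, and CFTR was overlapped by a peak with no TSS. None of the endocrine markers INS, GCG and SST had a peak. A TSS peak overlapped COL1A1 alone among 6 fibroblast markers, with scores of 25 to 81. Among 4 leukocyte and 3 endothelial markers, 1 of each was so overlapped, PTPRC by a wide peak with another symbol and PECAM1. The acinar genes CPA1 and CELA3A also lay in wide peaks named for other genes, and PRSS1 had no peak. Scores of a bulk library cannot tell a mark present in fewer cells from less of the mark per cell.

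Totals of all peaks ran from 3277561 to 3460390 per library. The reads in peaks could be inferred from gaps between the deposited whole numbers in 6 libraries and ran from 2332807 to 3299848. They were not resolved for the control clones without hIFNb, whose libraries left 0 of the whole numbers up to 100 unused, against 10 to 30 in the others. Scaling up leaves such gaps, so the untreated control libraries showed no sign of it and the other libraries did. The size of the difference in depth between those libraries and the others was not measured.

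Promoter peaks gained H3K27ac relative to the rest of the table after hIFNb. Their share of the total score was 25.1% and 24.8% in untreated control clones and 27.1% and 26.6% in the same clones after hIFNb. In IRF1-guide clones it was 25.2% and 24.9% untreated and 28.1% and 27.2% after hIFNb. The share was higher after hIFNb in all 4 clones, by 1.80 to 2.86 percentage points, and the treated and untreated libraries did not overlap. The median score per promoter peak moved from between 59 and 61 in untreated libraries to between 65 and 69 after hIFNb. The median of the peaks under 20 kb with no TSS lay between 33 and 37 untreated and between 32 and 38 after hIFNb, and it moved up in the control clones and down in the IRF1-guide clones.

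**Figure D1:**
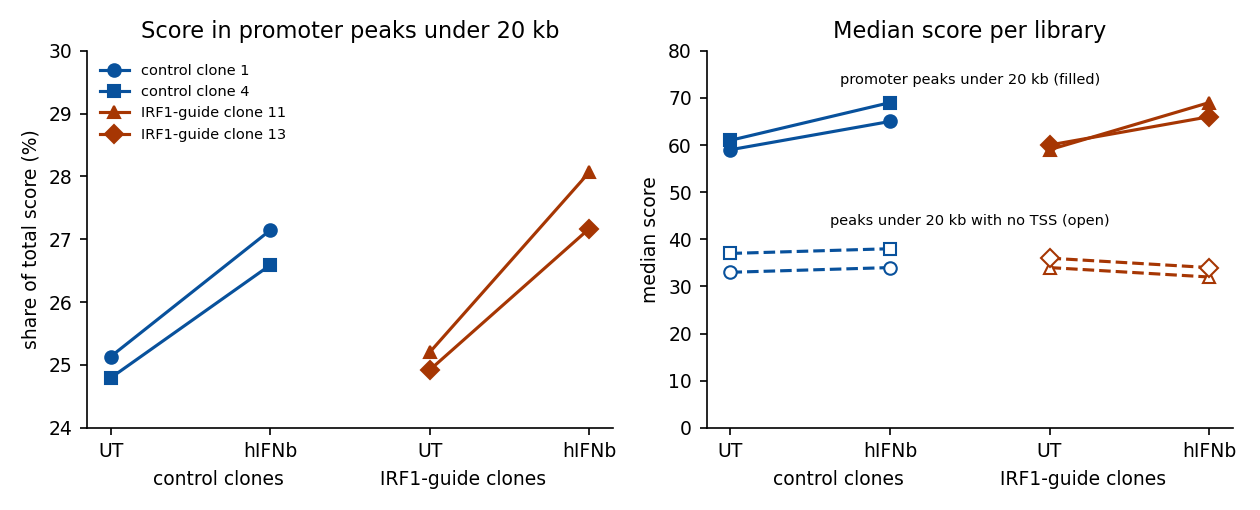
Share of the total score held by the 9096 promoter peaks (left, %, axis from 24 to 30) and median score of promoter peaks and of peaks under 20 kb with no TSS (right) in each library, with a line joining the untreated (UT) and hIFNb libraries of a clone. Every line for promoter peaks goes up, with shares of 24.8% to 25.2% untreated and 26.6% to 28.1% after hIFNb.

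Over all clones, 537 promoter peaks rose with hIFNb and 51 fell in a limma group-means model at an adjusted p under 0.05. Of all 31961 peaks 9.13% were called. Rises were 5.90% of the promoter peaks, against 6.55% of all peaks, and falls were 0.561% against 2.58%. In this fit the shift was thus seen less in the share of called rises than in the rarity of falls and in the median. The median log2 change was 0.12 in promoter peaks and -0.08 in peaks under 20 kb with no TSS. In the 807 TSS peaks of 20 kb or more it was -0.05, so the gain was not seen at TSS peaks of every width. In all 4 clones the score went up at 26.8% of promoter peaks and down at 9.73%, against 19.9% and 20.4% of all peaks. For the TSS peaks of 20 kb or more these shares were 22.6% and 38.8%. Fitted with a block for the clone, which sets each treated library against the untreated one of its clone, 1737 promoter peaks rose and 555 fell. Of all 31961 peaks, 5295 (16.6%) rose and 5068 (15.9%) fell with the block. Rises with the block were a larger share of promoter peaks than of all peaks, and falls a smaller share. The split depended on the scaling, with 437 rises and 103 falls after centring on the median of all peaks, and 378 and 259 after centring on the median of the promoter peaks, which moved their median log2 change from 0.12 to -0.04.

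The largest rises among the named genes were at type III interferon genes, whose products bind a receptor found mainly on epithelial cells. At IFNL1 the scores were 1 and 4 in untreated control clones, 84 and 50 after hIFNb, 0 and 0 in untreated IRF1-guide clones and 21 and 10 after hIFNb. The rise was 4.17 ± 0.43 on the log2(score + 1) scale (SE, limma adjusted p = 0.000363), and with a pseudocount of 5 it was 2.62. IFNL2 scored 1 and 5, then 163 and 87 in control clones, and 5 and 4, then 59 and 38 in IRF1-guide clones (4.13 ± 0.38, adjusted p = 0.000212). Its neighbour IFNL3 rose by 3.94 ± 0.35 (adjusted p = 0.000164). At all 3 genes the treated libraries of control clones stood highest and every treated library lay above every untreated one.

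Of the 22 gene lists, that of antiviral effectors held the most rises. RSAD2 (chromosome 2, 6863716 to 6878834) scored 57 and 31 in untreated control clones, 387 and 396 after hIFNb, 19 and 17 in untreated IRF1-guide clones and 268 and 282 after hIFNb. This was an 8.90-fold increase in control clones and a 15.3-fold increase in IRF1-guide clones, and the log2 change for the 4 clones together was 3.52 ± 0.20 (limma adjusted p = 2.59e-05). MX1, whose product is a dynamin-like GTPase that traps viral ribonucleoproteins, went from 202 and 127 to 918 and 742 in control clones and from 79 and 63 to 699 and 679 in IRF1-guide clones (2.81 ± 0.17, adjusted p = 2.77e-05). OAS2, which makes the 2′-5′ oligoadenylates that activate RNase L, went from 58 and 45 to 265 and 247, and from 19 and 30 to 202 and 217 (2.69 ± 0.18, adjusted p = 5.69e-05). At RSAD2, MX1 and OAS2 both untreated IRF1-guide libraries lay below both untreated control libraries. SHFL rose by 2.70 ± 0.28 (adjusted p = 0.000347). Of the 28 promoter peaks of the antiviral list, 24 rose and none fell, with a median log2 change of 1.53, against 0.12 over all promoter peaks.

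The ISG15 conjugation and HERC ligase list had 5 peaks, and all 5 rose, with a median of 2.08. HERC6, an interferon-induced ligase gene next to HERC5, scored 89 and 61, then 471 and 338 in control clones, and 30 and 27, then 361 and 330 in IRF1-guide clones (2.99 ± 0.18, limma adjusted p = 2.77e-05). HERC5 rose by 2.88 ± 0.35 (adjusted p = 0.000848) and UBE2L6, the conjugating enzyme for ISG15, by 1.94 ± 0.14 (adjusted p = 7.35e-05). UBA7, the activating enzyme, had an adjusted p of 0.0384 that ran from 0.0106 to 0.133 when each library was left out, and its treated and untreated libraries overlapped. The 4 peaks of the PARP list all rose, with PARP10 at 1.94 ± 0.16 (adjusted p = 0.000126) and PARP14 at 1.29 ± 0.12 (adjusted p = 0.000254). PARP12 was called at 1.02 ± 0.26 (adjusted p = 0.0368), but lost the call in 6 of 8 leave-one-out fits.

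Among the sensors of viral nucleic acid 8 of 11 peaks rose and none fell. AIM2, a sensor of cytosolic DNA, went from 7 and 11 to 61 and 74 in control clones and from 16 and 23 to 84 and 71 in IRF1-guide clones (2.38 ± 0.24, limma adjusted p = 0.000286). DDX58, which encodes the RNA sensor RIG-I, rose by 1.88 ± 0.17 (adjusted p = 0.000173) and DDX60 by 1.68 ± 0.25 (adjusted p = 0.00266). ZBP1, a sensor of Z-form nucleic acid, scored 106 and 107, then 418 and 404 in control clones, and 65 and 44, then 179 and 96 in IRF1-guide clones, so that the treated library of IRF1-guide clone 13 lay below both untreated control libraries (1.61 ± 0.21 over all clones, adjusted p = 0.00127).

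Of the 17 peaks of interferon receptor, JAK, STAT and IRF genes, 7 rose and none fell, with a median of 0.45. STAT2 and IRF9 were among them. STAT2 went from 57 and 52 to 188 and 215 in control clones and from 62 and 54 to 223 and 161 in IRF1-guide clones (1.78 ± 0.16, limma adjusted p = 0.000212). IRF9 rose by 1.34 ± 0.16 (adjusted p = 0.000695) and IRF7, which drives the later wave of interferon genes, by 1.79 ± 0.21 (adjusted p = 0.000668). The receptor chain genes IFNAR1 and IFNAR2, chosen after their values were seen, did not pass (0.08 ± 0.17 and 0.45 ± 0.25, adjusted p = 0.812 and 0.284). Of 9 feedback inhibitor peaks, 2 rose. SOCS1, an inhibitor of JAK kinases, went from 32 and 38 to 291 and 204 in control clones and from 41 and 33 to 152 and 120 in IRF1-guide clones (2.31 ± 0.19, adjusted p = 0.000115). USP18, which removes ISG15 and blocks the receptor, rose by 1.65 ± 0.20 (adjusted p = 0.000843), and SOCS5 had a value of 0.24 ± 0.14 (adjusted p = 0.291).

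Antigen presentation genes followed, with 9 of 15 promoter peaks rising and none falling, and a median of 0.64. The fit with the clone as a block gave 11 rises and 1 fall, ERAP1, a peptide-trimming aminopeptidase gene named after its values were seen (-0.54 ± 0.17, limma adjusted p = 0.0784, and 0.00765 with the block). HLA-C, a classical MHC class I gene, scored 95 and 99, then 245 and 213 in control clones, and 33 and 31, then 191 and 156 in IRF1-guide clones (1.81 ± 0.15, limma adjusted p = 0.000137). HLA-B rose by 1.88 ± 0.20 (adjusted p = 0.000363) and HLA-F by 2.18 ± 0.23 (adjusted p = 0.000419). TAP1, the peptide transporter whose peak also holds PSMB9, rose by 1.71 ± 0.17 (adjusted p = 0.000311). HLA genes resemble each other and their copies vary between genomes, so the division of reads among them is uncertain. B2M, the invariant chain of MHC class I, went from 154 and 163 to 275 and 287 in control clones and from 97 and 112 to 273 and 264 in IRF1-guide clones (1.09 ± 0.13, adjusted p = 0.000669).

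Cytokine and chemokine promoters rose at 6 of 10 peaks and none fell. The fit with the clone as a block gave 8 rises and 2 falls, the neutrophil chemokine genes CXCL1 and CXCL5, named after their values were seen (adjusted p = 0.293 and 0.258 in limma without the block, and 0.00864 and 0.029 with it). CXCL11, whose peak also holds CXCL10, went from 30 and 50 to 389 and 361 in control clones and from 25 and 17 to 161 and 91 in IRF1-guide clones (2.87 ± 0.24, limma adjusted p = 0.000141). Both chemokines attract T cells through CXCR3. GBP5, a guanylate-binding GTPase gene, went from 33 and 32 to 240 and 252 and from 17 and 33 to 110 and 103 (2.50 ± 0.21, adjusted p = 0.000143). GBP1 rose by 1.59 ± 0.18 (adjusted p = 0.000572) and GBP3 had a value of 0.48 ± 0.14 (adjusted p = 0.0618). For CXCL11 and GBP5 the treated control libraries lay well above the treated IRF1-guide libraries.

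**Figure D2:**
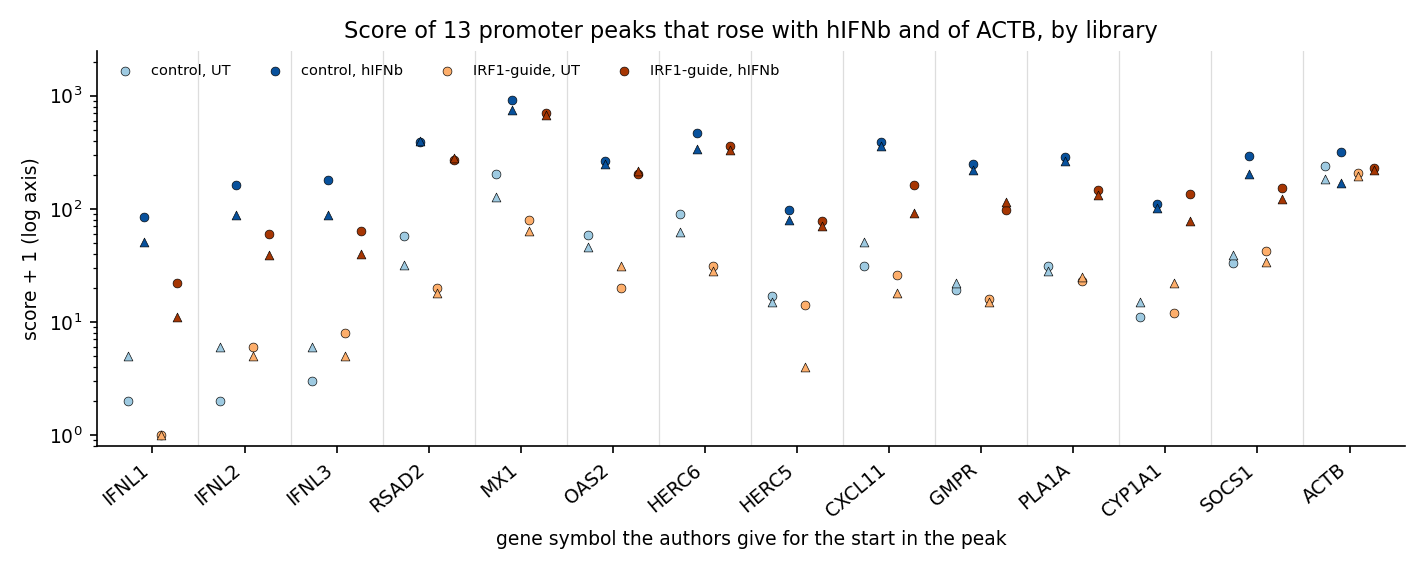
Score plus 1 on a log axis for 13 promoter peaks that rose with hIFNb and for ACTB, with 1 point per library (circles for clones 1 and 11, triangles for clones 4 and 13) coloured by group. Treated libraries lie above untreated ones at the 13 peaks, from 0 to 21 and 10 in the IRF1-guide libraries of IFNL1 up to 918 at MX1, while the groups of ACTB overlap. Named rises were chosen for groups that did not overlap, so this gap was largely set by the choice of peaks.

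Some of the largest rises were outside the interferon lists. LOC101927272, an uncharacterised locus on chromosome 16, went from 7 and 7 to 171 and 147 in control clones and from 15 and 10 to 126 and 140 in IRF1-guide clones (3.83 ± 0.21, limma adjusted p = 2.59e-05). GMPR, which encodes guanosine monophosphate reductase of the purine salvage pathway, went from 18 and 21 to 248 and 219 and from 15 and 14 to 96 and 115 (3.15 ± 0.18, adjusted p = 2.59e-05). PLA1A, a phosphatidylserine phospholipase gene, rose by 2.89 ± 0.16 (adjusted p = 2.59e-05), PRR20G by 3.16 ± 0.25 (adjusted p = 0.000103) and LAMP3, a lysosomal membrane protein gene, by 2.73 ± 0.25 (adjusted p = 0.000212). CYP1A1 scored 10 and 14, then 109 and 101 in control clones, and 11 and 21, then 134 and 77 in IRF1-guide clones (2.85 ± 0.27, adjusted p = 0.000238). At CYP1A1 the treated libraries of the 2 genotypes overlapped. Of the 9 peaks of aryl hydrocarbon receptor and xenobiotic genes the other rise was CYP2J2 (2.01 ± 0.30, adjusted p = 0.00279), and ABCC2 and GSTP1 had values of -0.25 ± 0.11 and -0.34 ± 0.13 (adjusted p = 0.203 and 0.127).

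The named falls were smaller than the named rises and mostly at non-coding loci and pseudogenes. LOC105376233 went from 59 and 59 to 24 and 27 in control clones and from 55 and 82 to 27 and 36 in IRF1-guide clones (-1.13 ± 0.21, limma adjusted p = 0.00877). LOC105373770 fell by 1.00 ± 0.19 (adjusted p = 0.0104) and PSMC1P4 by 0.85 ± 0.14 (adjusted p = 0.00539), and these 3 were the named falls that stayed called whichever library was left out. The coding genes NEBL, a nebulette gene (-0.81 ± 0.21, adjusted p = 0.0373), and CDH17, an intestinal cadherin gene (-0.75 ± 0.19, adjusted p = 0.0386), lost the call in 6 of 8 leave-one-out fits. TSPAN8, a tetraspanin gene of epithelial cells, scored 365 and 310, then 214 and 194 in control clones, and 342 and 381, then 214 and 280 in IRF1-guide clones (-0.64 ± 0.14, adjusted p = 0.0171), and lost it in 4.

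Few peaks of the metabolic, ribosomal, cell cycle and epithelial lists were called. Of the 11 peaks of the ductal and epithelial list none rose and 1 fell, TSPAN8. The blocked fit called 2 higher and 3 lower. Of 7 glycolysis peaks PGAM1 alone rose (0.69 ± 0.14, limma adjusted p = 0.0157), and ALDOA and GPI had values of 0.25 ± 0.13 and -0.36 ± 0.13 (adjusted p = 0.264 and 0.126). With the block 2 of the 7 rose and 2 fell. No peak passed among 12 of cholesterol synthesis and uptake or 8 of fatty acid synthesis, where SREBF1 and ACLY had values of -0.17 ± 0.15 and 0.21 ± 0.15 (adjusted p = 0.518 and 0.415). Of 35 peaks of the TCA cycle and respiratory chain only SDHA was called (0.76 ± 0.16, adjusted p = 0.0146), and the median of the list was 0.24. Both PGAM1 and SDHA lost the call in some leave-one-out fits, with adjusted p up to 0.0654 and 0.0635. The 37 ribosomal protein peaks had a median of 0.01 and 2 rises, RPL27 (0.75 ± 0.11, adjusted p = 0.00252), whose peak also holds the interferon-induced gene IFI35, and RPS16 (0.57 ± 0.13, adjusted p = 0.0269), which holds an ISRE core. RPS16 lost the call when any library but the hIFNb library of IRF1-guide clone 13 was left out, and after either centring. None of 20 cell cycle peaks passed, with CDC6 at -0.14 ± 0.10 (adjusted p = 0.412), nor any of 7 peaks of NF-kB and immediate early genes, with EGR1 at 0.27 ± 0.19 (adjusted p = 0.4).

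Of the 14 peaks of the housekeeping list 2 rose with hIFNb (14.3%, against 5.90% of promoter peaks), B2M and SDHA, and none fell. The median log2 change of the list was -0.01. ACTB scored 240 and 181, then 318 and 169 in control clones, and 208 and 196, then 228 and 218 in IRF1-guide clones (0.15 ± 0.19, limma adjusted p = 0.671). The peak that holds GAPDH, named LOC112268089, had a value of 0.07 ± 0.12 (adjusted p = 0.777), TUBB one of 0.02 ± 0.11 (adjusted p = 0.929) and KRT8 one of 0.04 ± 0.15 (adjusted p = 0.883). The signs of ACTB, TUBB and KRT8 turn negative after centring on the median of the promoter peaks. Across the 9 interferon and antigen presentation lists together 66 of 101 peaks rose and none fell, with B2M, also a housekeeping gene, counted here. Across the other 13 lists 6 of 169 rose and 1 fell. In the blocked fit the former held 78 rises and 3 falls, and the latter 18 rises and 11 falls.

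**Figure D3:**
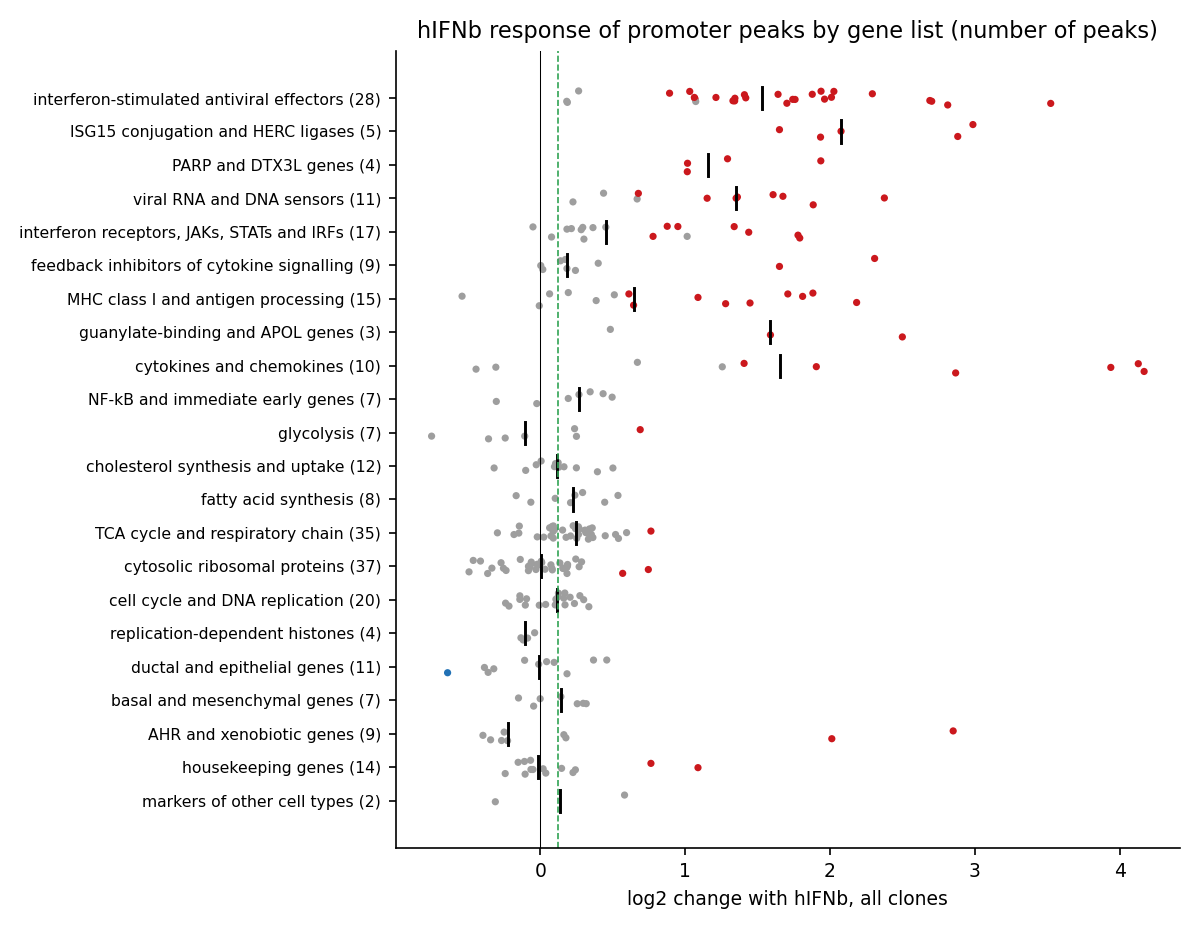
Log2 change with hIFNb over all clones for the promoter peaks of 22 gene lists, 1 point per peak (red, called rise; blue, called fall; grey, not called), with a black bar at the median of the list and a dashed green line at the median of all promoter peaks, 0.12. The lists at the top hold nearly all of the red points, with medians of 1.53 for antiviral effectors and 2.08 for ISG15 conjugation, while TSPAN8 is the single blue point.

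The share of promoter peaks called differed with width and sequence class. It was counted here without a test. The share of peaks called as rises went from 1.09% of the 183 peaks under 1 kb to 10.1% of the 1174 peaks from 10 to 20 kb. Wider peaks also have higher scores (median 14 against 249), on which a call depends. Between these 2 width classes falls went from 0% to 1.79%, while the median log2 change went from 0.12 to 0.005. The share going up in all 4 clones went from 14.8% to 28.5%, and the share going down from 4.92% to 25.6%. A RefSeq start lay in 7117 of the promoter peaks, and these were classed by the highest CpG observed-to-expected ratio among the 300 bp promoter windows they hold. Rises were 12.1% of the 753 low-CpG peaks (a ratio under 0.35), 7.33% of the 682 intermediate peaks and 4.26% of the 5682 high-CpG peaks (a ratio of 0.65 or more). Low-CpG peaks were also wider than high-CpG peaks (median 6646 against 3362 bp) and higher in score (median 91.25 against 62.4). CpG class apart from width and score was not tested. The median log2 change ran the other way, at -0.07, 0.10 and 0.14, so that the small gain seen over most promoters lay with CpG-rich ones. Falls were 2.52% of the low-CpG peaks and 0.106% of the high-CpG peaks.

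An ISRE core was present in a window of 324 of these 7117 peaks. Of the 324, 88 rose (27.2%) and 1 fell (141 and 14 with the clone as a block), with a median log2 change of 0.29, and 46.6% went up in all 4 clones. Of the 6793 peaks with no core, 295 rose (4.34%). Counted by window, the core stood in 3.57% of all 35116 RefSeq promoters, in 3.24% of the windows in promoter peaks and in 17.6% of the windows in peaks that rose. For rises called in control clones the core stood in 21.2% of the windows (62 of 293), and for IRF1-guide rises in 37.2% (55 of 148). Counted by peak, 49 control rises held a core and 143 did not, while 42 IRF1-guide rises held a core and 58 did not. By these calls the counts with a core were close, and the rises lacking a core differed more. With the clone as a block, control rises numbered 116 with a core and 737 without, and IRF1-guide rises 101 and 567. Peaks lacking a core had a median log2 change of 0.10 for the control response and 0.14 for the IRF1-guide response. For peaks with a core these medians were 0.29 and 0.30. Whether the link with the core differed between genotypes was not tested. Where a window held several matches, the most downstream was taken for its position. The median position of its centre from the start was -62.5 bp in the 108 windows of peaks that rose. It was -89.5 bp in the 386 windows of all promoter peaks, which include those 108. The GAS core TTCNNNGAA stood in 11.9% of the windows in rises, against 6.35% in promoter peaks, and the TATAAA letters in 8 of the 35 windows in falls, against 5.58%. Most rises held no ISRE core in these windows, among them GMPR, HERC6, IRF9 and STAT2, and peaks reach well beyond the window. Overlap between motifs was not removed, both strands were searched, and a match is letters and not a bound site.

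In control clones alone 284 promoter peaks rose (3.12%) and 14 fell (0.154%), against 4.07% and 0.676% of all peaks (4.74% in all). In IRF1-guide clones alone 134 rose (1.47%) and none fell, against 1.20% and 0.025% of all peaks (1.22% in all). In them 949 promoter peaks passed at an unadjusted p under 0.05, which is 10.4% of promoter peaks, against 12.7% of all peaks. With the clone as a block the counts were 1172 and 418 in control clones, against 13.4% and 11.3% of all peaks. In IRF1-guide clones they were 875 and 189, against 7.44% and 6.64%. The 2 responses come from separate libraries, but their calls share 1 estimate of spread per peak from all 8 libraries and are not independent. In both, 115 peaks rose, which is 40.5% of the control rises and 85.8% of the IRF1-guide rises. Across the 9096 peaks the 2 responses had a Pearson r of 0.63, as a description over peaks that share libraries. Leaving out 1 library left between 45 and 288 calls in control clones, the fewest without the hIFNb library of clone 1, and between 24 and 121 in IRF1-guide clones, the fewest without the hIFNb library of clone 11.

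**Figure D4:**
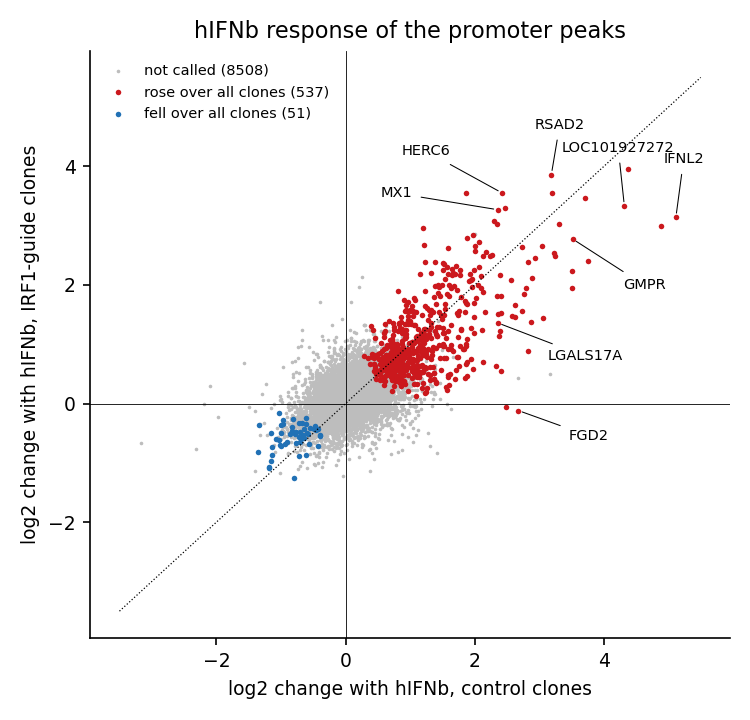
Log2 change with hIFNb in control clones (x) against IRF1-guide clones (y) for the 9096 promoter peaks, coloured by the call over all clones, with a dotted line of equal response. Most of the 537 rises lie along the line, RSAD2, HERC6 and MX1 lie above it, and GMPR, LGALS17A and FGD2 lie below it.

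No promoter peak passed the limma test of the difference between the responses of IRF1-guide and control clones, as for all peaks (0.0% called), and 182 had an unadjusted p under 0.05 (2.0%, against 3.94% of all peaks). With the clone as a block 38 of the 9096 promoter peaks passed. The IRF1-guide response minus the control response was above 0 at 15 of them and below 0 at 23, against 0.106% and 0.657% of all peaks (0.763% in all). The smallest p belonged to FGD2, which encodes a guanine exchange factor for CDC42. It scored 10 and 20, then 110 and 84 in control clones, and 15 and 9, then 16 and 7 in IRF1-guide clones. Its difference was -2.79 ± 0.67 (adjusted p = 0.942, and 0.00652 with the block). TINF2, a shelterin gene at telomeres, went from 123 and 127 to 441 and 326 in control clones and from 124 and 138 to 193 and 166 in IRF1-guide clones (-1.14 ± 0.29, adjusted p = 1, and 0.00471 with the block). MAP3K6 went from 30 and 33 to 22 and 17 and from 16 and 26 to 52 and 47, with opposite directions by genotype (1.91 ± 0.47, adjusted p = 0.986, and 0.0295 with the block).

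The 15 peaks with a difference above 0 in the blocked fit included HERC6, MX1, HLA-B, HLA-C, RTP4, UBE2L6, IRF9, DDX60 and IFIT3, named here after their values were seen. At each of these 9 the untreated IRF1-guide libraries scored below the untreated control libraries. The same held at RGL2, SETD1A, MIR9902-2 and MAP3K6, and not at H2BC21 and CASTOR2, which make up the rest of the 15. RTP4, a receptor transporter gene induced by interferon, scored 198 and 147, then 460 and 400 in control clones, and 51 and 61, then 266 and 252 in IRF1-guide clones. Both comparisons rest on the same untreated libraries, so a low untreated score enters both. The 23 with a difference below 0 included IL18BP, an inhibitor of interleukin 18, which rose from 22 and 19 to 152 and 84 in control clones and stood at 16 and 10, then 18 and 20, in IRF1-guide clones.

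Without treatment no promoter peak passed the limma comparison of IRF1-guide with control clones, as for all peaks (0.0% called), and 676 had an unadjusted p under 0.05 (7.43%, against 12% of all peaks). The 5 promoters of smallest p, SLFN12L, RTP4, UBE2L6, HLA-C and LINC01553, each had an adjusted p of 0.0532 and lower scores in IRF1-guide clones. SLFN12L scored 102 and 92 in control clones and 26 and 18 in IRF1-guide clones (-2.11 ± 0.26). HLA-C scored 95 and 99 against 33 and 31 (-1.57 ± 0.21), RTP4 198 and 147 against 51 and 61 (-1.60 ± 0.21) and UBE2L6 132 and 113 against 41 and 44. At these 4 the genotypes did not overlap, and none passed. Across the antiviral list the median untreated difference was -0.69, against -0.01 over all promoter peaks, and 23 of the 28 peaks did not overlap between genotypes, against 40.6% of all peaks. For antigen presentation the median was -0.60, with 11 of 15 peaks not overlapping. With the R1 or R2 ending of the column names as a term, 89 promoter peaks passed, 28 higher and 61 lower in IRF1-guide clones, against 0.476% and 0.785% of all peaks.

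After hIFNb 11 promoter peaks (0.121%) were higher and 63 (0.693%) lower in IRF1-guide than in control clones, against 0.238% and 2.19% of all peaks (2.43% in all). LGALS17A, a galectin-family pseudogene, scored 312 and 206 in control clones and 39 and 28 in IRF1-guide clones (-2.90 ± 0.33, limma adjusted p = 0.00655). The same peak scored 55 and 43 against 15 and 10 without treatment. LOC107985076, whose peak holds the guanylate-binding protein gene GBP4, scored 179 and 172 against 21 and 28 (-2.80 ± 0.29, adjusted p = 0.00606), and 57 and 42 against 11 and 14 without treatment. LINC02000 scored 96 and 50 against 3 and 9 (-3.48 ± 0.54, adjusted p = 0.0127), FGD2 110 and 84 against 16 and 7 (-3.06 ± 0.48, adjusted p = 0.0127) and IL18BP 152 and 84 against 18 and 20 (-2.51 ± 0.37, adjusted p = 0.0111). In the untreated libraries FGD2 overlapped between genotypes (10 and 20 against 15 and 9), while IL18BP did not (22 and 19 against 16 and 10).

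Of the 63 lower peaks, 61 also had a negative untreated difference, against 51.7% of all promoter peaks. The untreated libraries are of the same clones and enter the same estimate of spread. Their median untreated difference was -0.85, and at 56 of them the untreated libraries did not overlap between genotypes, against 37.0% of promoter peaks and 40.6% of all peaks. The antiviral list had a median difference of -0.26 after hIFNb and none of its peaks was called, while the cytokine and chemokine list had one of -1.12, with CXCL11 called (-1.62 ± 0.34, adjusted p = 0.0371). The 11 higher peaks included NINJ2-AS1, an antisense gene, which scored 24 and 28 in control clones and 69 and 91 in IRF1-guide clones (1.58 ± 0.25, limma adjusted p = 0.013). GLI2, a transcription factor gene of hedgehog signalling, scored 58 and 80 against 210 and 277 (1.81 ± 0.35, adjusted p = 0.0258). RASSF8-AS1 scored 29 and 25 against 85 and 228 (2.33 ± 0.50, adjusted p = 0.0417), and clone 13 stood far above clone 11 there both with and without hIFNb. These calls rest on few libraries. None of the 74 was left without the hIFNb library of control clone 1 or without that of control clone 4, and 24 and 13 were left without that of IRF1-guide clone 11 or 13.

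Counting each clone once, limma on clone means called 22 promoter peaks, 4 higher (0.0440%) and 18 lower (0.198%) in IRF1-guide clones, against 0.0594% and 0.457% of all peaks (0.516% in all). The higher ones were RASSF8-AS1 (2.56 ± 0.42, adjusted p = 0.0464), GLI2 (1.94 ± 0.29, adjusted p = 0.0398), MCAM, a cell adhesion molecule gene (1.81 ± 0.29, adjusted p = 0.0415), and GPRIN3 (1.73 ± 0.28, adjusted p = 0.0464). MCTP2, a calcium-binding membrane protein gene, scored 103 and 111, then 199 and 168 in control clones, and 27 and 23, then 58 and 28 in IRF1-guide clones (-2.10 ± 0.27, adjusted p = 0.0366). ETV7-AS1 was also lower (-1.97 ± 0.26, adjusted p = 0.0366), and so was SLFN12L (adjusted p = 0.0366). No peak passed with a filter of mean score 20 or without the mean-variance trend, and leaving out 1 library left between 0 and 70 calls, the most without the untreated library of control clone 4.

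**Figure D5:**
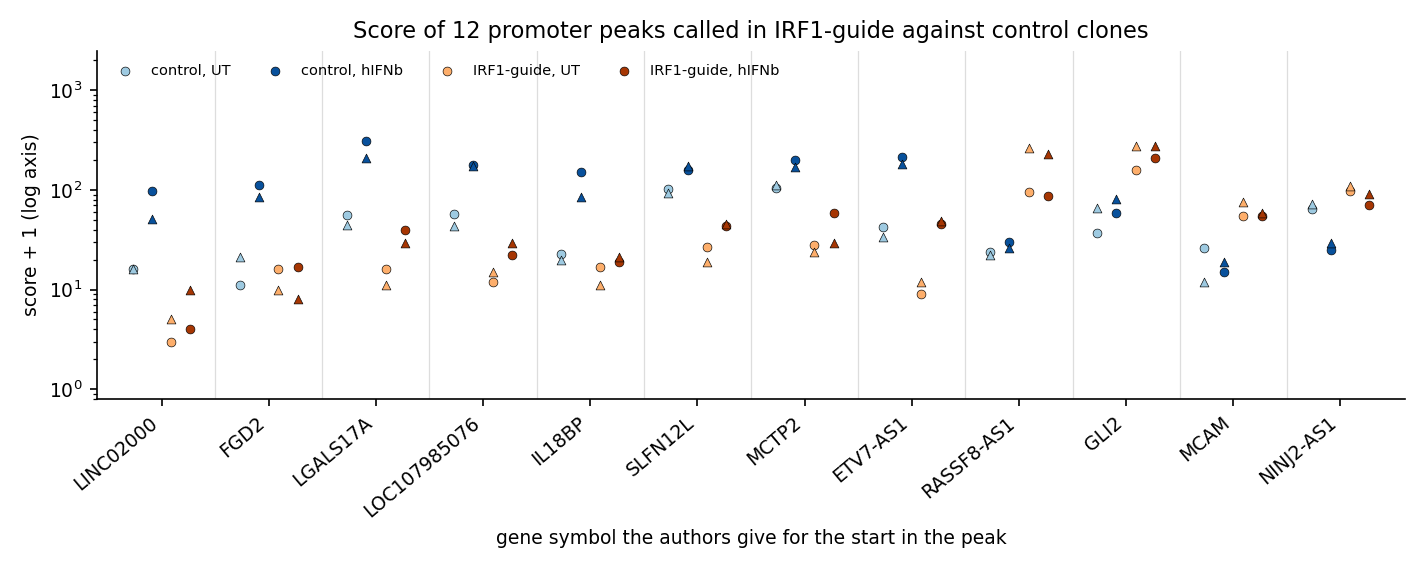
Score plus 1 on a log axis for 12 promoter peaks called between IRF1-guide and control clones after hIFNb or on clone means, with 1 point per library (circles for clones 1 and 11, triangles for clones 4 and 13) coloured by group. At the 8 peaks on the left the treated IRF1-guide libraries lie below the treated control libraries, as at LGALS17A with 39 and 28 against 312 and 206, and at the 4 on the right they lie above. Named calls were chosen for groups that did not overlap, so these gaps were largely set by the choice of peaks.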

How the data were processed

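H3K27ac was measured in 8 libraries of 4 clones. Bowtie2 and GRCh38 (hg38) are named in the submitters' processing notes; the sources used here do not name the peak caller, counter or scaling. The deposited values are scores, normalised peak counts that the authors rounded to whole numbers, so no count test was used. limma 3.58.1 (R 4.3.3) was run on log2(score + 1) with a group-means model of all libraries and a mean-variance trend. P-values were adjusted (Benjamini-Hochberg) over 31961 peaks, and peaks were called at an adjusted p under 0.05. Genotype was also tested on clone means, 2 against 2. A filter for scores above 0 in 2 or more libraries removed none of the 9096 promoter peaks. The fit was tested on simulated data. Both libraries of a clone deviated together from their group means (correlation 0.428 in control and 0.387 in IRF1-guide clones), and they share the clone, so the clone was also fitted as a block. A planned permutation test of the share of score is not given. The promoter peaks, the 22 gene lists and the tests were chosen with earlier results of these data known. Named genes were, per comparison, up to 15 rises and 10 falls of largest log2 change among called peaks with groups that did not overlap and a mean score of at least 20; up to 4 per list; fixed controls; the 3 highest scores; and, without calls, the 5 of smallest p. Exceptions are said to be chosen after their values were seen. RefSeq windows run from 250 bp before to 50 bp after a start. One named promoter is not reported here.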

Additional observations from a re-analysis of the deposited data

Results flagged for a closer look

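The difference between genotypes in the hIFNb response is listed here because it passed with the clone as a block in limma, while no promoter peak passed in the group-means model. In the blocked fit 38 promoter peaks differed. Among the promoters of smallest p in the group-means model, the response of IRF1-guide clones minus that of control clones was -2.79 at FGD2, 1.91 at MAP3K6, -2.55 at LOC105374304 and -1.14 at TINF2. LOC105374304 scored 13 and 5, then 53 and 48 in control clones, and 14 and 11, then 14 and 10 in IRF1-guide clones. Of the 23 peaks with a difference below 0, 8 moved up in both control clones and down in both IRF1-guide clones, or the reverse, and so did 4 of the 15 with a difference above 0.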

How the results depend on the processing

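The main counts of called promoter peaks were 588 over all clones, 298 in control clones, 134 in IRF1-guide clones, 74 between genotypes after hIFNb, 22 on clone means and 0 for the untreated and response differences. With the clone as a replicate block the counts were 2292, 1590 and 1064 for the 3 responses and 38 for their difference. Without the mean-variance trend they were 384, 190, 88, 37 after hIFNb and 0 on clone means. With the column ending as a term, added after seeing the data, they were 1027, 556, 213, 250 after hIFNb and 89 untreated. The control libraries alone gave 169. A pseudocount of 5 gave 117 after hIFNb and 46 on clone means, a width under 10000 bp gave 49 after hIFNb, and a mean score of at least 20 gave 0 on clone means. Leaving out each library gave 304 to 431, 45 to 288, 24 to 121, 0 to 86 and 0 to 70 calls, and 0 to 1 untreated. The fewest over all clones and in control clones were without the hIFNb library of control clone 1; without a library its group rests on 1 sample assumed to vary like the others. The block moved the rises of the 13 other lists from 6 to 18 and their falls from 1 to 11, and those of ISRE-holding peaks from 88 to 141 and from 1 to 14, and leaving out each library gave 3 to 5 and 58 to 76 rises. In the 9 interferon lists 60 to 78 peaks rose under every setting. The rise in promoter share, 2.23 percentage points, ran from 1.83 (width under 10000 bp) to 2.37. Of 55 named calls over all clones, 42 held whichever library was left out, and of 15 in IRF1-guide clones 6 and of 25 in control clones 13 did; none of the named genotype calls did. Uncalled values changed sign at KRT8 (-0.032 centred on all peaks, -0.12 centred on promoter peaks, -0.089 to 0.178 leaving out a library), TUBB (-0.056, -0.15, and -0.028 to 0.068), ACTB (-0.020 centred on promoter peaks, -0.079 to 0.375 leaving out a library), and, leaving out a library, RPL19 (-0.181 to 0.019) and BMS1P2-AGAP9 (-0.191 to 0.0025).

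These scores are normalised by an unstated method, so a shift of all promoter peaks cannot be told apart from scaling. With 2 clones per genotype, differences between genotypes cannot be told apart from differences between clones. Depth was not resolved for the untreated control libraries.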

Other observations

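The gene named for a peak is the authors' single symbol, and counts change when every RefSeq start in a peak is used instead. Of peaks with no TSS in the deposited table, 1018 held a RefSeq start. Counted by any start inside a promoter peak under 20 kb, 26 of 30 antiviral effector peaks rose with hIFNb, as did 11 of 18 of MHC class I and antigen processing, 7 of 13 of cytokines and chemokines and 3 of 4 of guanylate-binding and APOL genes. None of these fell. The same count gave 3 of 29 rises for cell cycle and DNA replication genes and 1 of 14 for NF-kB and immediate early genes, for which no peak passed by the authors' symbol.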
